A study of Homo sapiens with 12 samples.

Results

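The subunits of oxidative phosphorylation (OXPHOS) were compared between the mitochondrial and the nuclear genome in human head and neck squamous cell carcinoma (HNSCC) cells with and without doxycycline (DOX). The members were chosen by gene symbol. They were the 13 protein-coding genes of mitochondrial DNA and 81 nuclear genes of the NDUF, SDH, UQCR, COX and ATP5 families, 94 in all of the 39368 symbols in the count tables. CAL27 and HSC3, both established HPV-negative HNSCC lines, carried the pLKO-tet-puro vector with a DOX-inducible MUC1shRNA in all 12 libraries. Each line gave 3 libraries with 0.1% DMSO (vehicle) and 3 with 500 ng/mL DOX, taken on day 7. The comparison asks what silencing of MUC1-C does to these transcripts. No DOX-treated line with a control shRNA was analysed here, so effects of the silencing, of the drug and of shRNA induction cannot be told apart. DOX belongs to the tetracyclines, which bind bacterial-type ribosomes, and mitochondrial ribosomes are of that type.

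OXPHOS is carried out in the inner mitochondrial membrane by the complexes I (NADH dehydrogenase), II (succinate dehydrogenase), III (the cytochrome bc1 complex), IV (cytochrome c oxidase) and V (ATP synthase). Complexes I, III, IV and V combine subunits from both genomes, whereas complex II is wholly nuclear. Mitochondrial DNA is read as long precursors that are cut into mRNAs, so genes on the same strand share their transcription start, while each nuclear subunit has a promoter of its own. Supply from the 2 genomes has to be matched for the complexes to assemble.

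The libraries held 89730914 to 169065103 counts. MUC1, the targeted gene, had 5753 to 8062 counts in CAL27 vehicle libraries and 285 to 419 under DOX, and 162 to 196 against 16 to 46 in HSC3. The 8 squamous markers, which include KRT5, KRT14 and TP63, were detected in every library, and in CAL27 summed to 6991 to 7183 CPM (counts scaled to a common library size) in the vehicle and 3272 to 3473 in the DOX group. In HSC3 they summed to 5373 to 5968 and 2418 to 2854 CPM. The 10 markers of leukocytes, endothelium and fibroblasts summed to 36.5 to 36.7 CPM (vehicle) and 25.9 to 29.1 (DOX) in CAL27, and to 4.88 to 5.48 and 5.53 to 9.55 in HSC3. CD3E, COL1A2 and DCN were at 0 in all HSC3 libraries. HSC3 DOX library 1 stood apart. It had the fewest genes with a count, 19128 against 19699 to 24685 elsewhere. Of genes with 8 to 16 counts expected from the other libraries, 51.9% had none there, against 28.0% and 36.7% in the other HSC3 DOX libraries, 7.33% to 22.2% in HSC3 with vehicle and 1.26% to 3.94% in CAL27. Call counts for HSC3 are therefore also given without that library, beside the member values and genome ratios that it moved.

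The 13 mitochondrial genes lie close together on chromosome M, and some share bases. In the GRCh38 annotation MT-ATP8 (chrM:8366-8572) and MT-ATP6 (chrM:8527-9207) overlap by 46 bases, and MT-ND4L (chrM:10470-10766) and MT-ND4 (chrM:10760-12137) by 7 bases. A read that lies in such a stretch cannot be given to a single gene, and the setting that the authors used for such reads is not given in the sources used here. The shared bases are shown 5′ to 3′ on the plus strand, with the start codon of the downstream gene and the stop codon of the upstream gene in capitals.
MT-ATP8 and MT-ATP6, chrM:8527-8572: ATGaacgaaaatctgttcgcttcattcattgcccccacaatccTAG
MT-ND4L and MT-ND4, chrM:10760-10766: ATGcTAA
The overlap makes up 22.2% of MT-ATP8 and 2.4% of MT-ND4L. MT-ND6 (chrM:14149-14673) is the only one of the 13 on the minus strand, and its mRNA is known to carry little or no poly(A) tail.

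Per kilobase of transcript, the mitochondrial genes were far more abundant than the nuclear members. With vehicle, they ranged from 2247 (MT-ND3) to 11003 (MT-CO1) CPM per kb in CAL27, with a median of 4632, and from 595 (MT-ND3) to 9276 (MT-CO1) in HSC3, with a median of 4062. The 78 nuclear members that were tested had medians of 39.8 CPM per kb in CAL27 and 25.4 in HSC3, and the highest, ATP5F1B, reached 341 and 220.3. ATP5F1B encodes the catalytic β subunit of ATP synthase.

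The share of all counts on the mitochondrial genes was higher in each HSC3 DOX library than in any HSC3 vehicle library. It was 5.98%, 6.50% and 5.91% in the vehicle libraries and 9.60%, 7.53% and 8.69% in the DOX libraries 1 to 3, or 6.13% ± 0.32 against 8.61% ± 1.04 (SD, n = 3 each). Such a full separation is the most that 3 against 3 can show (two-sided exact permutation p = 0.1, the smallest the design allows). In CAL27 the share was 7.51%, 7.79% and 6.35% with vehicle and 6.94%, 6.39% and 8.20% with DOX, and the groups overlapped (7.22% ± 0.76 against 7.18% ± 0.93, SD, n = 3 each). The nuclear members held 0.335% ± 0.008 of the counts with vehicle and 0.354% ± 0.017 with DOX in HSC3, and 0.480% ± 0.006 and 0.471% ± 0.030 in CAL27 (SD, n = 3 each). In bulk RNA, more mitochondrial transcripts and less of other mRNA per cell cannot be told apart.

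**Figure D1:**
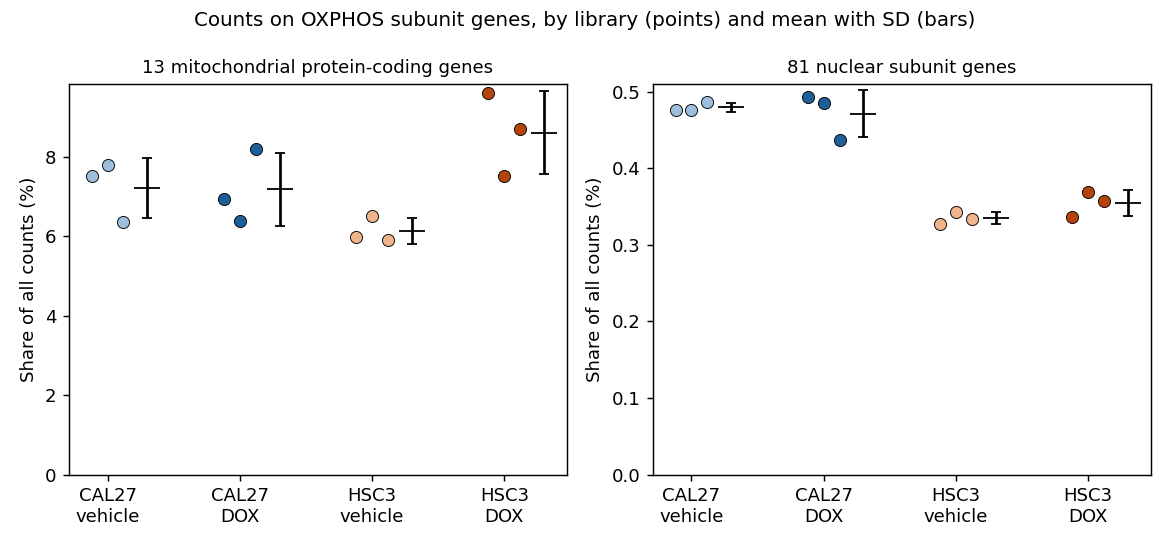
Share of all counts (%, vertical axes) on the 13 mitochondrial genes (left) and the 81 nuclear members (right) in the 4 groups; points are libraries, and bars show the mean with its SD. On the left the HSC3 DOX libraries, at 7.53% to 9.60%, lie above the HSC3 vehicle libraries, at 5.91% to 6.50%, while the CAL27 groups overlap.

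Gene by gene, all 13 mitochondrial transcripts passed the test as higher in HSC3 with DOX, by edgeR's quasi-likelihood test at a Benjamini-Hochberg adjusted p under 0.05. None was lower. Of all 18021 genes tested in HSC3, 13% were called higher and 15.4% lower. The log2 fold changes ran from 0.32 (MT-CO1) to 0.95 (MT-ND2), with a median of 0.53, against -0.0097 over all genes. None passed a fold change above 2 as well, which 5.98% of the genes tested did. In each of the 13 the DOX libraries lay wholly above the vehicle libraries, a pattern that 19.8% of the genes tested showed.

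MT-ND2 rose most, followed by MT-ATP8 and MT-CO2, and the median was 0.54 over the 7 complex I genes and 0.62 over the pair of complex V genes. MT-ND2, a core subunit of the membrane arm, measured 4231, 4687 and 4589 CPM in the vehicle libraries and 10442, 7087 and 8519 after DOX (log2 fold change 0.95 ± 0.12, SE; edgeR adjusted p = 0.000134). DOX library 1 was the highest of the 3, and the lowest DOX value still stood well clear of the vehicle values. MT-ND4L measured 551, 589 and 561 CPM with vehicle and 1075, 730.4 and 801 with DOX (0.62 ± 0.12). MT-ND3 measured 171, 218 and 229 against 331, 288 and 281 CPM (0.54 ± 0.11). MT-ND1, MT-ND4, MT-ND5 and MT-ND6 rose by 0.47, 0.56, 0.53 and 0.50 on the log2 scale. MT-ND6, annotated on the other strand, fell within the range of its neighbours. It measured 1982, 2242 and 2174 CPM with vehicle and 3791, 2342 and 2945 with DOX (edgeR adjusted p = 0.0183). Whether counting used the strand is not given, so reads of the opposite strand may be among these counts. The value is therefore no separate measure of the other strand.

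In complex III, MT-CYB, which encodes cytochrome b, rose from 4292, 4979 and 4409 to 7023, 5874 and 6755 CPM (0.52 ± 0.08, edgeR adjusted p = 0.000697). The 3 complex IV genes, which form the catalytic core of cytochrome c oxidase, did not rise evenly. MT-CO2 went from 4629, 4946 and 4552 to 8624, 7093 and 8014 CPM (0.75 ± 0.08, adjusted p = 3.55e-05). MT-CO1, the most abundant transcript of the 13, went from 14426, 15154 and 13330 to 19991, 15540.5 and 18146 CPM (0.32 ± 0.09, adjusted p = 0.0201). There DOX library 2 lay just above the highest vehicle library. MT-CO3 rose by 0.33 ± 0.07. In complex V, MT-ATP8 went from 379, 391 and 414 to 785, 555 and 654 CPM (0.75 ± 0.11) and MT-ATP6 from 2884, 3399 and 3517 to 5575, 3757 and 4354 CPM (0.48 ± 0.13), with the overlap described above between them.

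**Figure D2:**
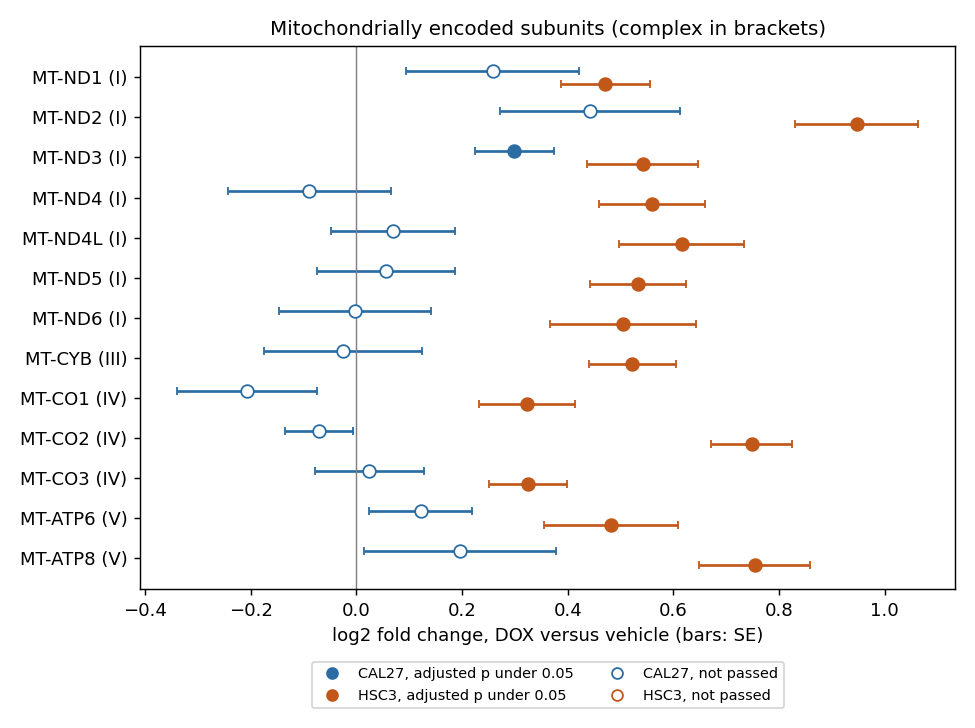
Log2 fold change of DOX against vehicle (horizontal axis) for the 13 mitochondrial genes (rows, complex in brackets) in CAL27 (blue) and HSC3 (orange); bars show the SE, and filled points have an adjusted p under 0.05. In HSC3 the values run from 0.32 to 0.95, all filled, and in CAL27 from -0.21 to 0.44, with only MT-ND3 filled.

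Measures of library quality moved with this result. The share of genes without a count where 8 to 16 were expected, given above, was higher in all HSC3 DOX libraries than in the HSC3 vehicle libraries, and library 1 was the highest for that share and for the mitochondrial share. The summed markers of other cell types were also somewhat higher in the HSC3 DOX libraries. Of these 10 markers only 2 were tested there. COL1A1 passed as higher (0.73 ± 0.17), and CD14 had a negative value (-0.29) and did not pass. PECAM1, CDH5 and PDGFRB were at 0 in all HSC3 DOX libraries but not in all vehicle libraries, and the reverse held for LUM. The part of library quality and of these markers in the result was not tested. Without HSC3 DOX library 1, all 13 mitochondrial genes were still called higher, at log2 fold changes of 0.23 to 0.79 and a median of 0.44. Leaving out vehicle library 1 left 10 of 13. The mitochondrial ribosomal RNAs, MT-RNR1 and MT-RNR2, were little captured in these poly(A) libraries and varied widely. MT-RNR2 measured 6.03, 126 and 212 CPM in HSC3 with vehicle and 258, 456 and 403 with DOX, and neither rRNA passed the test. Nuclear copies of mitochondrial genes can share their reads. Of 45 such pseudogenes tested in HSC3, 38 had a positive log2 fold change (median 0.38) and 1, MTATP6P1 (0.57), passed as higher.

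In CAL27 the mitochondrial genes did not move together. MT-ND3 alone passed as higher, against 22.6% of all 19239 genes tested, and none passed as lower, against 21.8%. MT-ND3, another core subunit of the membrane arm of complex I, measured 720.0, 862 and 751 CPM with vehicle and 1016, 977 and 875 with DOX (0.30 ± 0.07, edgeR adjusted p = 0.00918). MT-ND2 had the largest value, at 0.44 ± 0.17, with 4822, 5167 and 4028 CPM against 6099.8, 5378 and 7569.9, and did not pass (adjusted p = 0.107). In these 2 genes the DOX libraries lay above the vehicle libraries, and in the other 11 the groups overlapped; over all genes tested, 26% showed all DOX libraries above. MT-CO1 had the lowest value, at -0.21 ± 0.13, with 17714, 18440.1 and 14746 CPM against 13996, 13085 and 17019. The median of the 13 was 0.056, and 8 of 13 values were positive. DOX library 6 was the highest of its group in mitochondrial share, at 8.20%.

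The change with DOX differed between the lines in part of the mitochondrial genes. In a fit over all 12 libraries with a line-by-DOX term, 7 of 13 had a more positive change in HSC3 than in CAL27. None had a more negative one, and all 13 differences were positive, with a median of 0.51. Over the 20694 genes tested, 8.25% were called higher and 12.3% lower for that term. The largest difference was that of MT-CO2, at 0.82 ± 0.12 (edgeR adjusted p = 0.000129), which was slightly negative in CAL27 with overlapping groups, at 5542, 5586 and 4860 CPM with vehicle and 5256, 4589 and 5381 with DOX. MT-ND4 followed at 0.65 ± 0.17, then MT-ATP8 at 0.56, MT-CYB and MT-ND4L at 0.55, MT-CO1 at 0.53 and MT-ND5 at 0.48. MT-ND1, MT-ND2, MT-ND3, MT-ND6, MT-CO3 and MT-ATP6 did not pass, at 0.22 to 0.51. The count of 7 depended on single libraries. It was 2 without HSC3 DOX library 1, when MT-CO2 (0.77) and MT-ND4L (0.38) passed, and 2 without CAL27 vehicle library 2. It was 3 or 4 without CAL27 vehicle library 1, CAL27 DOX library 4 or 5 or any 1 of the HSC3 vehicle libraries, and 11 without HSC3 DOX library 2. It was 1, MT-CO2, when no filter on low counts was applied. Shares of all genes in these alternative fits were not taken, so the counts have no background beside them.

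The nuclear subunits of the same complexes moved far less in HSC3. Of the 78 tested, 8 were higher and none lower, which is 10.3% against the 13% of all genes, and their median log2 fold change was 0.084. Complex III had the highest nuclear median, at 0.23 over 9 genes, and complex I 0.16 over 37. Complexes II, IV and V were at 0.076, 0.024 and 0.038. The DOX libraries lay wholly above the vehicle libraries in 23 of the 78, against 19.8% of all genes, wholly below in 3, against 22.8%, and overlapped in 52. Without HSC3 DOX library 1, 21 were higher and 1 lower, against 17.5% and 19.3% of all genes. Leaving out any other HSC3 library gave 3 or 4 higher, against 8.0% to 10.9% of all genes. Higher calls were thus below the share of all genes with library 1 and above it without.

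**Figure D3:**
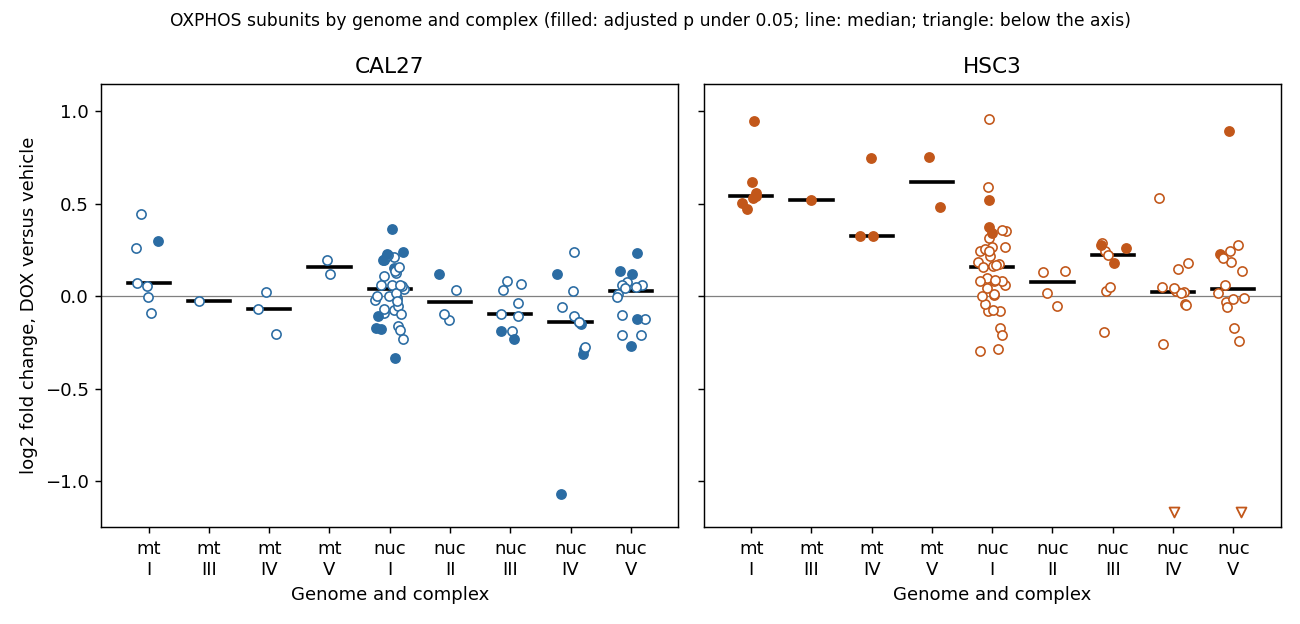
Log2 fold change of DOX against vehicle (vertical axes) for every tested member, grouped by genome (mt, nuc) and complex, in CAL27 (left) and HSC3 (right); lines are medians, filled points have an adjusted p under 0.05, and triangles mark 2 low-count genes below the axis. In HSC3 the mitochondrial medians, at 0.33 to 0.62, stand above the nuclear medians, at 0.024 to 0.23.

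ATP5MG was the nuclear member that rose most in HSC3. It encodes subunit g of the membrane part of ATP synthase, and measured 7.90, 7.18 and 9.44 CPM with vehicle and 16.3, 14.1 and 15.1 with DOX (0.89 ± 0.13, edgeR adjusted p = 0.000376). The lowest DOX library was well above the highest vehicle library. In CAL27 it measured 7.76, 8.68 and 8.42 against 10.6, 10.0 and 8.57 CPM (0.23 ± 0.09, adjusted p = 0.0371), where DOX library 6 fell among the vehicle values. Of its exons, 24.4% lie under another gene of the same strand. ATP5MGL, a gene related to it in sequence, had 0 to 40 counts in each library.

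The accessory complex I subunits NDUFA2, NDUFV3 and NDUFA8 also rose in HSC3. NDUFA2 went from 5.01, 5.88 and 5.79 to 7.45, 8.81 and 7.64 CPM (0.52 ± 0.13). Of its exons, 27.4% lie under genes of the opposite strand (IK and TMCO6), and whether counting used the strand is not given. NDUFV3 went from 24.5, 23.5 and 24.1 to 28.2, 32.9 and 32.4 CPM (0.37 ± 0.09). NDUFA8, a subunit on the intermembrane side, went from 23.0, 23.4 and 22.5 to 25.5, 32.7 and 29.3 CPM (0.34 ± 0.10). In all 3 the groups were separate.

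In complex III, 3 of 9 nuclear subunits (33.3%) passed as higher in HSC3, against 13% of all genes. This count depended on single libraries. Leaving out 1 at a time gave 0 to 5 higher, against 8.0% to 17.5% of all genes. UQCRH, the hinge protein that helps cytochrome c1 to meet cytochrome c, went from 74.7, 75.9 and 68.1 to 84.5, 90.8 and 89.6 CPM (0.28 ± 0.07, edgeR adjusted p = 0.0115). UQCRFS1, the Rieske iron-sulfur protein, went from 42.4, 42.6 and 41.0 to 44.9, 54.8 and 51.1 CPM (0.26 ± 0.09, adjusted p = 0.0428). UQCRC2, a core protein, went from 67.9, 68.8 and 68.6 to 77.7, 78.4 and 76.6 CPM (0.18 ± 0.06, adjusted p = 0.0472). UQCRC2 lost its call under 8 and UQCRFS1 under 7 of 13 alternatives in HSC3, NDUFA8 and ATP5F1B under 5 each, NDUFA2 and UQCRH under 2 each, and ATP5MG and NDUFV3 under none. ATP5F1B rose by 0.23 ± 0.06, from 385, 396 and 381 to 424, 477 and 463 CPM. The core subunits NDUFS1, NDUFV1, SDHA, SDHB, UQCRC1, CYC1, COX5A and ATP5F1A did not pass in HSC3, at -0.20 (UQCRC1) to 0.25 (CYC1). Without HSC3 DOX library 1 the 8 called members passed again, from 0.18 (UQCRC2) to 0.84 (ATP5MG). CYC1, cytochrome c1 (0.40 ± 0.06, edgeR adjusted p = 4.53e-05), and COX5A, a subunit of complex IV (0.20 ± 0.07, adjusted p = 0.0357), passed then too.

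In CAL27, 12 of the 78 nuclear members were higher and 12 lower, 15.4% each way against 22.6% and 21.8% of all genes, with a median of -0.0027. Scaling by library totals gave 9 higher and 18 lower, against 21.3% and 23.0% of all genes. The DOX libraries lay wholly above the vehicle libraries in 9, against 26% of all genes, wholly below in 13, against 26.3%, and overlapped in 56. Complex I, with 37 of the 78 members, held 7 of the 12 rises, or 18.9% of its members, below the 22.6% of all genes. Complex IV had 4 falls (33.3%) and 1 rise among 12 genes, with a median of -0.14. A single member, COX6B2, passed a fold change above 2 as well, against 6.42% of all genes. Without DOX library 6, 25 were higher and 10 lower, against 23.7% and 22.1% of all genes. Leaving out any other library gave 5 (without vehicle library 2) to 8 higher, against 17.8% to 20.2% of all genes. Without DOX library 4 there were 6 higher and 18 lower, against 20.2% and 21.4%.

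Among the rises in CAL27, NDUFAB1, the mitochondrial acyl carrier protein that is also a complex I subunit, had the largest. It went from 29.5, 31.1 and 30.1 to 40.6, 40.1 and 35.9 CPM (0.36 ± 0.05, edgeR adjusted p = 1.18e-05). In HSC3 it measured 17.7, 19.9 and 17.6 against 17.8, 21.1 and 16.5 CPM. NDUFB6 and NDUFV3, accessory subunits of complex I, rose by 0.24 ± 0.06 and 0.23 ± 0.04 and had separate groups. NDUFB3 rose by 0.21 ± 0.07, with its highest vehicle library at 21.8 and its lowest DOX library at 21.4 CPM. SDHB, the iron-sulfur subunit of complex II, rose by 0.12 ± 0.05, and NDUFA4, counted here with complex IV, by 0.12 ± 0.04. The calls of SDHB and, in CAL27, of ATP5MG were each lost under 7 of 12 alternatives and that of NDUFB3 under 5, while NDUFAB1, NDUFB6 and NDUFV3 kept theirs.

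Among the falls in CAL27, NDUFB5, an accessory subunit of complex I, went from 76.0, 71.4 and 74.4 to 60.6, 57.4 and 58.2 CPM (-0.33 ± 0.04, edgeR adjusted p = 1.92e-06). The complex IV subunits COX5B and COX6C followed. COX5B went from 72.4, 75.8 and 73.3 to 64.6, 60.2 and 53.3 CPM (-0.31 ± 0.06), and COX6C from 26.04, 26.8 and 28.6 to 24.4, 23.8 and 18.9 CPM (-0.28 ± 0.08). ATP5MC3, which encodes the c subunit of the ATP synthase ring, went from 105, 101 and 103 to 91.3, 90.5 and 74.9 CPM (-0.27 ± 0.06). The groups were separate in all 4, and DOX library 6 was the lowest in COX5B, COX6C and ATP5MC3. The core proteins of complex III fell too, UQCRC1 by 0.23 ± 0.05 and UQCRC2 by 0.19 ± 0.04 on the log2 scale. COX5B, COX6C and UQCRC1 each lost the call under 1 of 12 alternatives.

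Between the lines, 5 nuclear members had a more positive change with DOX in HSC3 than in CAL27, and none a more negative one. That is 6.41% of 78, against 8.25% and 12.3% of all genes. ATP5MG differed by 0.66 ± 0.16 (edgeR adjusted p = 0.00874), NDUFA8 by 0.41 ± 0.12 and UQCRC2 by 0.37 ± 0.07 (adjusted p = 0.00134). UQCRFS1 differed by 0.36 ± 0.09 and UQCRH by 0.31 ± 0.09. Of these 5, 3 belong to complex III, in which all 9 nuclear members had a positive difference. UQCRC2 moved in opposite directions, from 144, 145 and 140.2 to 130.4, 128 and 118 CPM in CAL27, with separate groups in each line. Without HSC3 DOX library 1, 20 nuclear members passed, these 5 among them. The share of all genes in that fit was not taken, so this count has no background beside it.

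**Figure D4:**
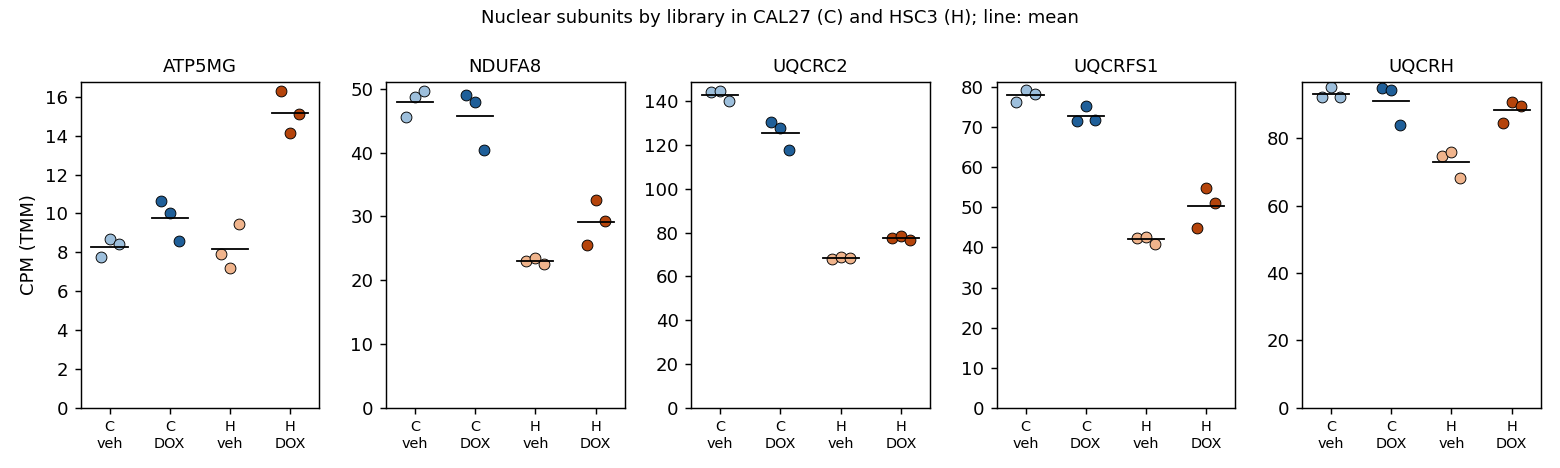
CPM (vertical axes, scaled within each line) of the 5 nuclear members whose change with DOX differed between CAL27 (C) and HSC3 (H); points are libraries and lines are means. In HSC3 each gene has its 3 DOX points above its 3 vehicle points, as ATP5MG at 14.1 to 16.3 against 7.18 to 9.44.

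The promoters of these 5 genes are shown because the genes shared this difference. Each is the RefSeq window on GRCh38.p14 from 250 bases before to 50 bases after the gene start, 5′ to 3′ on the strand of the gene. Capitals mark matches, on either strand, to the NRF1 core GCGCATGC, the ETS core CCGGAAGT, the YY1 core AAGATGGC or the CCAAT box, motifs of factors known from OXPHOS promoters or from promoters at large.
ATP5MG, chr11:118401356-118401655, plus strand: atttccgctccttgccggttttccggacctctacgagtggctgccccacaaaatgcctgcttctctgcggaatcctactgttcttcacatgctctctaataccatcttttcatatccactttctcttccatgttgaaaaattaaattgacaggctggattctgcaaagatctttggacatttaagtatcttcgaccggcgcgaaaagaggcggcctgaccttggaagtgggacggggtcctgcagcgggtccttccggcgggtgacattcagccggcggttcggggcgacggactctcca
NDUFA8, chr9:122159730-122160029, minus strand: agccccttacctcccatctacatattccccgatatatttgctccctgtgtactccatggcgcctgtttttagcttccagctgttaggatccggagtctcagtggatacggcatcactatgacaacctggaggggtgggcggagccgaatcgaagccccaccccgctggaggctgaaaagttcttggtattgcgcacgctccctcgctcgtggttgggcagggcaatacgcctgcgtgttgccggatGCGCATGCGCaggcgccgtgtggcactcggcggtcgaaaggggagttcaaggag
UQCRC2, chr16:21953111-21953410, plus strand: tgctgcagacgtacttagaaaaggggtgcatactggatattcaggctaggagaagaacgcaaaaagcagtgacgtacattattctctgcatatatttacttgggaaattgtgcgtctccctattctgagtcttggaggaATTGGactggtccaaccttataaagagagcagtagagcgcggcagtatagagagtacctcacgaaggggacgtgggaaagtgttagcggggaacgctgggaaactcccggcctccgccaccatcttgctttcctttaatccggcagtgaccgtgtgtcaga
UQCRFS1, chr19:29213102-29213401, minus strand: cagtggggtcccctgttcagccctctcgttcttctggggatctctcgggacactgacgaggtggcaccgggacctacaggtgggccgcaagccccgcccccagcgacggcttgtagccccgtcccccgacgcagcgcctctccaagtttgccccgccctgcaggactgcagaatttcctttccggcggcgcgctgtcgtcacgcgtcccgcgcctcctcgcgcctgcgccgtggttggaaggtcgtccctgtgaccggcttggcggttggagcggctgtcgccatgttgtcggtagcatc
UQCRH, chr1:46303448-46303747, plus strand: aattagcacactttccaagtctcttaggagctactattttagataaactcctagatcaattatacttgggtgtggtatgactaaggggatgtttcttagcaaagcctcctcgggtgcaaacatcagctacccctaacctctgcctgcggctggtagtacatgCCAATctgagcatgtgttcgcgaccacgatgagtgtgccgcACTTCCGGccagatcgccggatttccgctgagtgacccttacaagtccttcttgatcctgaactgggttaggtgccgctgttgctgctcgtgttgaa
NDUFA8 held an NRF1 core and its reverse complement, which overlap each other, UQCRH an ETS core and a CCAAT box, and UQCRC2 a CCAAT box. No searched letters were found in the windows of ATP5MG and UQCRFS1. RefSeq windows were matched for 65 of the 81 nuclear members. Of these, 20% held the NRF1 core, against 3.27% of all 27305 windows, 13.8% the ETS core against 4.44%, and 16.9% the YY1 core against 3.03%. The CCAAT box was in 33.8% against 35.7%. At least 1 of the NRF1, ETS and YY1 cores was in 27 of 65 (41.5%), against 9.94% of all windows. A match describes the letters only.

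The balance of the 2 genomes was also taken within each complex, as the summed CPM of the mitochondrial over that of the nuclear members. Over all complexes it was 18.3 ± 0.63 with vehicle and 24.4 ± 4.11 with DOX in HSC3, and 15.1 ± 1.75 and 15.3 ± 3.01 in CAL27 (SD, n = 3 each). For complex I in HSC3 it was 28.2, 29.5 and 27.4 with vehicle and 49.0, 33.3 and 41.3 with DOX. For complex IV it was 54.0, 53.1 and 48.4 against 79.1, 57.7 and 66.9, and for complex III 10.1, 11.7 and 10.9 against 16.5, 11.9 and 14.2. For complex V it was 2.78, 3.05 and 3.24 against 4.93, 3.18 and 3.72, so DOX library 2 fell among the vehicle libraries there. The ratio over all complexes was 22.4 ± 2.80 (SD, n = 2) without HSC3 DOX library 1. In complexes I, III and IV the HSC3 groups were separate, with DOX library 2 the lowest in each. In CAL27 the groups overlapped in every complex. Across the 78 nuclear members the changes with DOX in the 2 lines had the same sign in 56, with r = 0.65 and rho = 0.56 across genes, which are not independent replicates and share their libraries. Over the 62 with a mean log2 CPM above 3 in both lines the sign was shared by 43, with r = 0.48 and rho = 0.42. Across the 13 mitochondrial genes the sign was shared by 8.

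With vehicle, a larger share of the nuclear than of the mitochondrial members differed between the lines. HSC3 was higher than CAL27 in 10 and lower in 46 of the 78, against 30.6% and 32.3% of all genes tested, with a median log2 difference of -0.36 against -0.12 over all genes. Cell line and culture medium (DMEM for CAL27, MEM for HSC3) cannot be told apart. Among the largest differences were lower levels of complex I subunits and of an ATP synthase subunit. NDUFA6, an accessory subunit of complex I, differed by -1.26 ± 0.06 (edgeR adjusted p = 8.54e-11), NDUFB7 by -1.35 ± 0.16, NDUFS6 by -1.30 ± 0.22 and ATP5F1D, the δ subunit of ATP synthase, by -1.10 ± 0.12. NDUFA13 differed by -1.40 ± 0.33 at 0.283 to 1.08 CPM in the vehicle libraries. Among the genes higher in HSC3 were ATP5F1C, the γ subunit of the rotor, at 1.01 ± 0.06, and UQCRC1 at 0.68 ± 0.11. All 12 nuclear complex IV members tested were lower in HSC3, 8 of them past the test.

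Of the 13 mitochondrial genes, 1 was higher (7.69%) and 3 lower (23.1%) in HSC3 with vehicle, against 30.6% and 32.3% of all genes. Their median was 0.029, but MT-ND3 differed by more than any nuclear member tested. These counts moved with the scaling of the libraries, as given at the end. MT-ND3 was lowest in HSC3 relative to CAL27, at -1.64 ± 0.11 (edgeR adjusted p = 1.53e-09), with the CPM given above. MT-ND4L (-0.57 ± 0.12) and MT-ATP8 (-0.39 ± 0.13) were also lower, and MT-CO3 was higher (0.23 ± 0.09, adjusted p = 0.0361). That call was lost when any 1 HSC3 vehicle library, CAL27 vehicle library 2 or 3 or CAL27 DOX library 4 was left out. Scaling by library totals moved the median of all genes from -0.12 to -0.39, and MT-CO3 then stood at -0.035. Relative to the median of all genes, the mitochondrial median was 0.15 under both scalings and the nuclear median -0.24. After regression on GC content and length the mitochondrial median was 0.38 and the nuclear median 0.10. The regression also takes out the mean of all genes, so these medians are not centred as those above. GC content and length took up 0.92% of the variance of this comparison. The sign of the nuclear median after regression can therefore not be compared with that of the fit.

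Several members could be measured poorly or not at all. COX6A2, COX7B2 and COX8C, isoforms known from muscle or testis, had 0 counts in all 12 libraries and were not tested. COX7A1, the muscle isoform, had 15 to 45 counts in each library. COX6B2, the testis isoform, had 59, 66 and 79 counts in CAL27 with vehicle and 40, 30 and 18 after DOX (-1.07 ± 0.34, edgeR adjusted p = 0.0154, lost under 4 of 12 alternatives), and 67, 26 and 52 against 0, 30 and 10 in HSC3, where it did not pass. Of its exons, 29.9% lie under another gene of the same strand. For NDUFV2, NDUFA13, NDUFA7, NDUFB8, SDHA, NDUFA11 and ATP5PO, 63.8% to 90% of the exons lie under such a gene. Their median with vehicle was 4.31 CPM in CAL27 and 2.10 in HSC3, against 52.0 and 34.8 for the other 71 tested, so their levels are uncertain.

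Genes that build and run the complexes were described from lists of their own, to be read against the 22.6% higher and 21.8% lower of all genes in CAL27 and the 13% and 15.4% in HSC3. The shares in HSC3 were 17.5% and 19.3% without DOX library 1. Of 57 assembly factors, 21 were higher (36.8%) and 4 lower (7.02%) in CAL27, 17 higher (29.8%) and 2 lower (3.51%) in HSC3, and the others did not pass. Single libraries left out gave 11 to 19 higher in HSC3, with 19 higher and 4 lower without DOX library 1. NDUFAF1, an assembly factor of complex I, went from 3.47, 3.24 and 2.78 to 5.26, 7.35 and 6.16 CPM in HSC3 (0.99 ± 0.17, edgeR adjusted p = 0.00137). In CAL27 the largest was PET117, a complex IV assembly factor (0.70 ± 0.23).

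Of 77 mitochondrial ribosomal proteins, 40 were higher (51.9%) and 3 lower (3.9%) in CAL27, with a median of 0.18. In HSC3, 20 were higher (26%) and 6 lower (7.79%), with a median of 0.16, and single libraries left out gave 5 (without vehicle library 1) to 33 (without DOX library 1) higher. The largest changes there were a fall of MRPL42 in CAL27 (-0.66) and a rise of MRPL2 in HSC3 (0.92). Of 83 cytosolic ribosomal proteins, 4 were higher (4.82%) and 37 lower (44.6%) in CAL27, and 3 higher (3.61%) and 7 lower (8.43%) in HSC3. The HSC3 counts without DOX library 1 were 18 higher and 11 lower of 84, and the median turned from -0.039 to 0.0033. The largest change was that of RPL3L, which fell in both (-0.94 and -1.70).

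Of 43 genes that maintain and read mitochondrial DNA, 16 were higher (37.2%) and 4 lower (9.3%) in CAL27, with a median of 0.11. In HSC3, 7 were higher (16.3%, near the 13% of all genes) and 4 lower (9.3%), with a median of 0.015 that was -0.0091 under library totals, and leaving out single libraries gave 3 (without vehicle library 2) to 11 (without DOX library 1) higher. PDE12, a deadenylase of mitochondrial mRNA, rose by 0.49 in CAL27, and MRM1, an rRNA methyltransferase, fell by 1.83 on the log2 scale in HSC3. POLRMT, the mitochondrial RNA polymerase, rose in both lines (0.22 and 0.48), as did LRPPRC, which stabilises mitochondrial mRNAs (0.17 and 0.28). These were picked after their values were seen, and the list did not share a direction in HSC3. There 22 of the 43 values were positive and 21 negative. Beside MRM1, the falls past the test in HSC3 were DNA2 (-0.68), PRIMPOL (-0.35) and FASTKD5 (-0.26). TFAM, which packages mitochondrial DNA, rose in CAL27 (0.14) and was at 0.020 in HSC3, not past the test. Of the nuclear regulators of OXPHOS genes, 6 were higher and 2 lower of 11 in CAL27, and 3 and 0 of 10 in HSC3 (4 and 1 without DOX library 1). PPARGC1A, the coactivator PGC-1α, went from 62.1, 57.7 and 63.2 to 19.95, 19.5 and 20.3 CPM in CAL27 (-1.61 ± 0.05, edgeR adjusted p = 2.5e-15). HSC3 had 0 to 18 counts of it and it was not tested there. ESRRA, a nuclear receptor that works with it, rose by 0.63 ± 0.15 in HSC3 and by 0.18 ± 0.05 in CAL27.

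The transcript of cytochrome c, the mobile carrier between complexes III and IV, fell in both lines, in HSC3 opposite to the mitochondrial genes. CYCS fell from 279, 297 and 311 to 207, 154 and 164 CPM in HSC3 (-0.75 ± 0.10, edgeR adjusted p = 0.000234; -0.89 without DOX library 1) and from 671, 642 and 672 to 599, 607 and 533 in CAL27 (-0.19 ± 0.05). It belongs to a list of linked subunits that the symbol rule did not take, of which 0 were higher and 2 lower of 8 in CAL27 and 1 and 1 in HSC3. NDUFA4L2, an isoform of NDUFA4, changed most of that list in CAL27 (-1.0 ± 0.22).

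Of 14 enzymes of the tricarboxylic acid cycle, 8 were higher (57.1%) and 1 lower (7.14%) in CAL27 (5 higher without vehicle library 2 or 3), and 4 higher (28.6%) and 2 lower (14.3%) in HSC3. IDH2 fell in both (-0.26 and -0.64). Of 17 glycolytic enzymes, 3 were higher (17.6%) and 7 lower (41.2%) in CAL27, and 3 higher (17.6%) and 4 lower (23.5%) in HSC3. PGAM1 fell by 0.98 and 1.58 on the log2 scale. Of 13 mitochondrial chaperones and proteases, 8 were higher (61.5%) and 1 lower (7.69%) in CAL27. In HSC3, 2 were higher (15.4%, near the 13% of all genes) and 1 lower. HSPD1, the mitochondrial HSP60, rose in both lines (0.44 ± 0.04 and 0.43 ± 0.06). Genes of the integrated stress response, which is known to follow some mitochondrial faults, were 3 higher (15.8%) and 10 lower (52.6%) of 19 in CAL27, and 0 higher and 10 lower (55.6%) of 18 in HSC3. NUPR1 (-2.45 in CAL27) and VLDLR (-1.13 in HSC3) changed most. Without HSC3 DOX library 1, 6 cycle enzymes were higher and 2 lower, 5 glycolytic enzymes higher and 4 lower, 4 chaperones and proteases higher and 1 lower, and 0 stress response genes higher and 10 lower.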

How the data were processed

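RNA was taken on day 7 from both lines, extracted with TRIzol and made into poly(A) libraries with TruSeq Stranded mRNA. The deposited values were raw counts per gene, made by the authors with STAR 2.7.9a and featureCounts of Subread 2.0.1 on GRCh38, per the submitters' processing notes. The handling of strand, of multi-mapped reads and of duplicates, and the annotation, are not given in the sources used here. The labels speak of cultures in triplicate, so p-values measure the spread between these samples, which may be technical. CAL27 DOX columns are numbered 4 to 6, and numbers were not used to pair them. In HSC3 the deviations of same-numbered libraries correlated at -0.20, 0.34 and -0.34, and those of the other pairs at -0.44 to 0.48. Deviations from a mean of 3 libraries depend on each other, so these values cannot decide whether the numbers pair samples. The main fit did not pair them.

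Counts were analysed with edgeR 4.0.16 (R 4.3.3): filterByExpr (minimum count 10, minimum total 15), TMM scaling and the robust quasi-likelihood test, two-sided. P-values were adjusted by Benjamini and Hochberg's method across every tested gene. A gene passed at an adjusted p under 0.05, and a fold change above 2 was counted as well. CPM are TMM-scaled within each line, and the 2 tables were fitted together for the line-by-DOX term and for the vehicle comparison. The fits were run on simulated data with 200 genes changed by 1.5 on the log2 scale. They recovered 92% of these in CAL27, 80% in HSC3, 70% for the line-by-DOX term and 80% for the vehicle comparison. Unchanged genes made up 13 of 197, 10 of 170, 8 of 148 and 8 of 168 calls, in that order. Smaller changes were not simulated. The members and lists were chosen with earlier results of these data known. Named genes were the 13 mitochondrial genes, the 5 largest rises, falls, interactions and vehicle differences among nuclear members past the test, fixed core subunits and isoforms, members that failed the filter, MUC1 and the largest change of each list. NDUFA4, ATP5F1C, ATP5MGL, POLRMT, LRPPRC, TFAM, DNA2, PRIMPOL, FASTKD5, KRT5, TP63 and MT-RNR2 were named after their values were seen. DESeq2 1.42.0, other scalings, no filter, a joint fit, mitochondrial genes left out, GC and length regression, a replicate block and single libraries left out were the alternatives. Promoter and overlap sequences came from RefSeq and the GRCh38 genome with its GENCODE annotation. No protein sequences were used here.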

Additional observations from a re-analysis of the deposited data

Results flagged for a closer look

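The change with DOX differed between the lines, by the test of the line-by-DOX term, for 12 subunits, and in each it was more positive in HSC3. Among the mitochondrial genes the log2 difference was 0.82 for MT-CO2, 0.65 for MT-ND4, 0.56 for MT-ATP8, 0.55 for MT-CYB, 0.55 for MT-ND4L, 0.53 for MT-CO1 and 0.48 for MT-ND5. Among the nuclear genes it was 0.66 for ATP5MG, 0.41 for NDUFA8, 0.37 for UQCRC2, 0.36 for UQCRFS1 and 0.31 for UQCRH. MT-CO2, ATP5MG, UQCRC2, UQCRFS1 and UQCRH passed in the main analysis and under all 16 alternatives run for this term. MT-ATP8 lost its call under 11 of the 16, MT-ND5 under 10, MT-ND4L under 9, MT-CO1 under 7, NDUFA8 under 5, MT-CYB under 3 and MT-ND4 under 2. The adjusted p of MT-CO2 ranged from 9.55e-11 to 0.000675 over these alternatives, and that of UQCRC2 from 3.02e-07 to 0.00425 (edgeR and DESeq2).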

How the results depend on the processing

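The mitochondrial rise in HSC3 kept its direction in all 13 genes under every alternative run, with 10 to 13 higher when single libraries were left out (10 without vehicle library 1, medians 0.44 to 0.63). MT-ND6, MT-CO1 and MT-ATP6 were the genes that lost calls, with a highest adjusted p of 0.165, 0.0936 and 0.112 (edgeR or DESeq2). With the replicate block, 13 mitochondrial (median 0.52) and 6 nuclear members were higher. With DESeq2, HSC3 nuclear members higher were 13, CAL27 mitochondrial members higher 2, and nuclear members for the line-by-DOX term 8 higher and 1 lower. In a joint fit of 12 libraries, HSC3 nuclear members were 15 higher and 1 lower, CAL27 nuclear members 4 higher and 3 lower, and CAL27 mitochondrial members higher 2. With library totals, CAL27 nuclear members were 9 higher and 18 lower. Regression on GC content and length gave an HSC3 nuclear median of 0.163. For the vehicle groups it gave a mitochondrial median of 0.38 and a nuclear median of 0.10. The regression takes out the mean of all genes, so these medians are not centred as those of the fits. Without a filter, 1 mitochondrial member was higher for the line-by-DOX term. For DESeq2, the joint fit, the replicate block and no filter, shares of all genes were not taken. They were also not taken for the line-by-DOX term and the vehicle groups under any alternative. Those counts have no background beside them and cannot be read as above or below it. Leaving out single libraries gave ranges of 1 to 2 higher and 0 to 1 lower for CAL27 mitochondrial members, 5 (without vehicle 2) to 25 (without DOX 6) higher and 8 to 18 lower for CAL27 nuclear members, and 3 (without vehicle 1 or 3) to 21 (without DOX 1) higher and 0 to 1 lower for HSC3 nuclear members. For the line-by-DOX term the ranges were 2 (without HSC3 DOX 1 or CAL27 vehicle 2) to 11 (without HSC3 DOX 2) mitochondrial higher, and 4 to 20 (without HSC3 DOX 1) nuclear higher and 0 to 1 lower. For the vehicle groups, mitochondrial members higher were 0 with library totals, DESeq2 size factors, DESeq2 or no filter, and 0 to 2 when single libraries were left out. With library totals mitochondrial members lower were 6 (median -0.240) and nuclear members higher 6 (median -0.627), MT-CO2 was at -0.173 and MT-CO3 at -0.0346. That scaling moved all genes by a like amount; for the other shifts the cause was not tested. In CAL27 no paired analysis was possible because the DOX columns carry numbers that no vehicle column has. Genes near 8 to 16 counts in HSC3 are limited by lost counts, and 3 against 3 libraries limit small changes.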
